A study of Mus musculus with 14 samples.

Results

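The 8 CXC chemokine ligands Cxcl1, Cxcl2, Cxcl3, Cxcl5, Cxcl9, Cxcl10, Cxcl14 and Cxcl16 and the receptor Cxcr2 were followed through 3 kinds of mouse bone marrow cells that had been given PBS or the cytokine IL-1β. These 9 genes were taken by name from the 55487 genes counted by RNA sequencing. The sorted cells came from lineage-depleted marrow and were either LSK cells (lineage-negative, Sca-1-positive, c-Kit-positive stem and progenitor cells) or LK cells (c-Kit-positive myeloid progenitors, labelled MP(LK)). All of the mice that gave LSK and LK cells, controls included, were C57BL/6 hosts that had been lethally irradiated and given marrow with a heterozygous Jak2V617F allele, so that their stroma stayed that of the host. The allele had been switched on by Mx1Cre, a Cre whose promoter responds to interferon, after induction with pI-pC. The hosts had been injected intraperitoneally with PBS (3 libraries of each population) or with IL-1β at 0.5 μg per dose (2 libraries of each population), 3 doses a week for 16 weeks. The mesenchymal stromal cells (MSC) had another origin and were wild type, grown for 21 days from C57BL/6 marrow. They were then kept for 72 h in PBS (2 libraries) or in 5 ng/ml IL-1β (2 libraries). Thus the sorted cells report long exposure in a mouse with mutant blood cells, and MSC report short exposure of wild-type cells in a dish. The methods put the mice at 6 to 8 weeks of age, without saying at which step, and count 3 mice given PBS and 2 given IL-1β for LSK and for LK cells, as many as there are libraries. How many animals stand behind each MSC culture is not given in the sources used here, so the p-values in MSC measure the spread between these cultures, which may in part be technical.

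CXC chemokines are small secreted proteins that steer leukocytes through G protein-coupled receptors. The ligands Cxcl1, Cxcl2, Cxcl3 and Cxcl5 act through Cxcr2, the receptor that draws neutrophils out of the marrow and into inflamed tissue, and IL-1 is a classical inducer of such ligands in stromal cells and macrophages by way of NF-κB. Cxcl9 and Cxcl10 are interferon-inducible ligands of Cxcr3, a receptor of activated T cells and NK cells, whereas Cxcl16 is made as a membrane-bound protein and is the ligand of Cxcr6. Cxcl14 is a ligand made at baseline by many epithelial and stromal cells.

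Of the 9 genes, 6 lie on chromosome 5 of the mouse build GRCm38, in a pair of clusters. Cxcl5 (90759360 to 90761624), Cxcl3 (90786103 to 90789600), Cxcl1 (90891241 to 90893115) and Cxcl2 (90903871 to 90905938) lie on the plus strand within 146.6 kb of each other. Cxcl9 (92321347 to 92328079) and Cxcl10 (92346638 to 92348889) are neighbours on the minus strand. Cxcl14 is on chromosome 13 (56288643 to 56296551, minus strand), Cxcl16 on chromosome 11 (70453983 to 70459984, minus strand) and Cxcr2 on chromosome 1 (74153989 to 74161246, plus strand). Cxcl10 lies within the span of Art3 and Cxcl16 overlaps Zmynd15, in each case on the opposite strand, and the pairs were counted by strand.

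The stretches just upstream of Cxcl1, Cxcl2, Cxcl3 and Cxcl10 are shown because they share a 10-base word of the kind bound by NF-κB. They are RefSeq sequences of build GRCm38.p6, written 5′ to 3′ on the strand of the gene and ending before the first base of the gene in either annotation. Capitals mark that word, which reads GGAATTTCCC in the first 3 genes and as its reverse complement GGGAAATTCC in Cxcl10, and, in Cxcl10, also the interferon-response word GAAAGTGAAA.
Cxcl1 (chr5:90891125-90891240, plus strand): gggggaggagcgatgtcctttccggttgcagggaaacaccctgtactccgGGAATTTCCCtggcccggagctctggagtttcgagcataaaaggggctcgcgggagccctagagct
Cxcl2 (chr5:90903759-90903870, plus strand): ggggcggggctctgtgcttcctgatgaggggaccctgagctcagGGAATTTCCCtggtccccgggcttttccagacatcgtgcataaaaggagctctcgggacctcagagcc
Cxcl3 (chr5:90785981-90786100, plus strand): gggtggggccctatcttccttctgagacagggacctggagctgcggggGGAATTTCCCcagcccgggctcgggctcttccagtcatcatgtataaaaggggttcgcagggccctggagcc
Cxcl10 (chr5:92348890-92349109, minus strand): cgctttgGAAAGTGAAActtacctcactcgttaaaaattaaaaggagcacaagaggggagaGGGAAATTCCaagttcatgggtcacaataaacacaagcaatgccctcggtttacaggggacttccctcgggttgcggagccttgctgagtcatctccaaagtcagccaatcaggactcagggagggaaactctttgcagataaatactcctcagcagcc

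The search covered the 250 bases before the RefSeq start of each gene. RefSeq windows were at hand for 7 of the 9 genes, Cxcl5 and Cxcl16 being the other two. The loose NF-κB pattern GGGNNNNNCC, read on both strands, was found in 6 of these 7 (Cxcl1, Cxcl2, Cxcl3, Cxcl9, Cxcl10 and Cxcr2, not Cxcl14), but 45.8% of the 32851 promoters searched hold it. The exact word GGGAAATTCC, on either strand, was picked after the sequences had been seen and stands in 0.0974% of the same promoters. In Cxcl1, Cxcl2 and Cxcl3 the bases at and around the word also match the loose pattern on the other strand, so the hits overlap. The interferon pattern GAAANNGAAA, read on both strands, was found in Cxcl10 and Cxcl14 and in 2.98% of all promoters. TATAAA, read on the gene's strand, was found in Cxcl3 and Cxcl9 and in 7.59%. These are matches of letters in a window and show no binding.

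The libraries held between 4393233 and 30871055 counted read pairs, and every IL-1β library of sorted cells was shallower than every PBS one. A count of 3 pairs, taken here as the floor of detection, stood for 0.683 CPM (counts scaled to library size) in the shallowest library and 0.0972 CPM in the deepest. Kit was read at 292.1 to 604.5 CPM in the sorted cells and at no more than 3.00 CPM in MSC, and Ly6a (Sca-1) at 15.2 to 42.1 CPM in LSK against 0.257 to 1.99 CPM in LK, as the sort would have it. The markers fitted the MSC label only in part. Col1a1 was high in MSC (405.2 to 1310 CPM). Of the 12 mesenchymal markers, 10 were above 3 counts in at least 1 PBS culture, the others being Lepr and Nt5e. All 12 were above 3 counts in at least 1 IL-1β culture. Lepr, a defining marker of marrow stroma, was at 0 counts in both PBS cultures and at 5 and 6 counts with IL-1β. The 10 macrophage markers, however, together came to 11930 to 15750 CPM with PBS and 32120 to 33090 CPM with IL-1β, led by Lyz2. The 12 mesenchymal markers together came to 1646 to 3236 CPM with PBS and 2738 to 3100 CPM with IL-1β. In such mixed bulk RNA, more cells of a type and more RNA per cell cannot be told apart.

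Where the genes were read at all differed sharply between the 3 cell kinds. The plot of all 9 genes by library shows the ligands in MSC and the receptor in LSK and LK cells. Over the 8 ligands and the 10 sorted libraries, 48 of 80 values were 0 counts, 71 were at or under 3 counts, and the highest was 12. In MSC, by contrast, each of the 8 ligands reached at least 93 counts or, for Cxcl9, 72 counts in the deepest library. Cxcr2 went the other way, with 10 to 111 counts in the sorted libraries and 0 or 1 count in each MSC library.

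**Figure D1:**
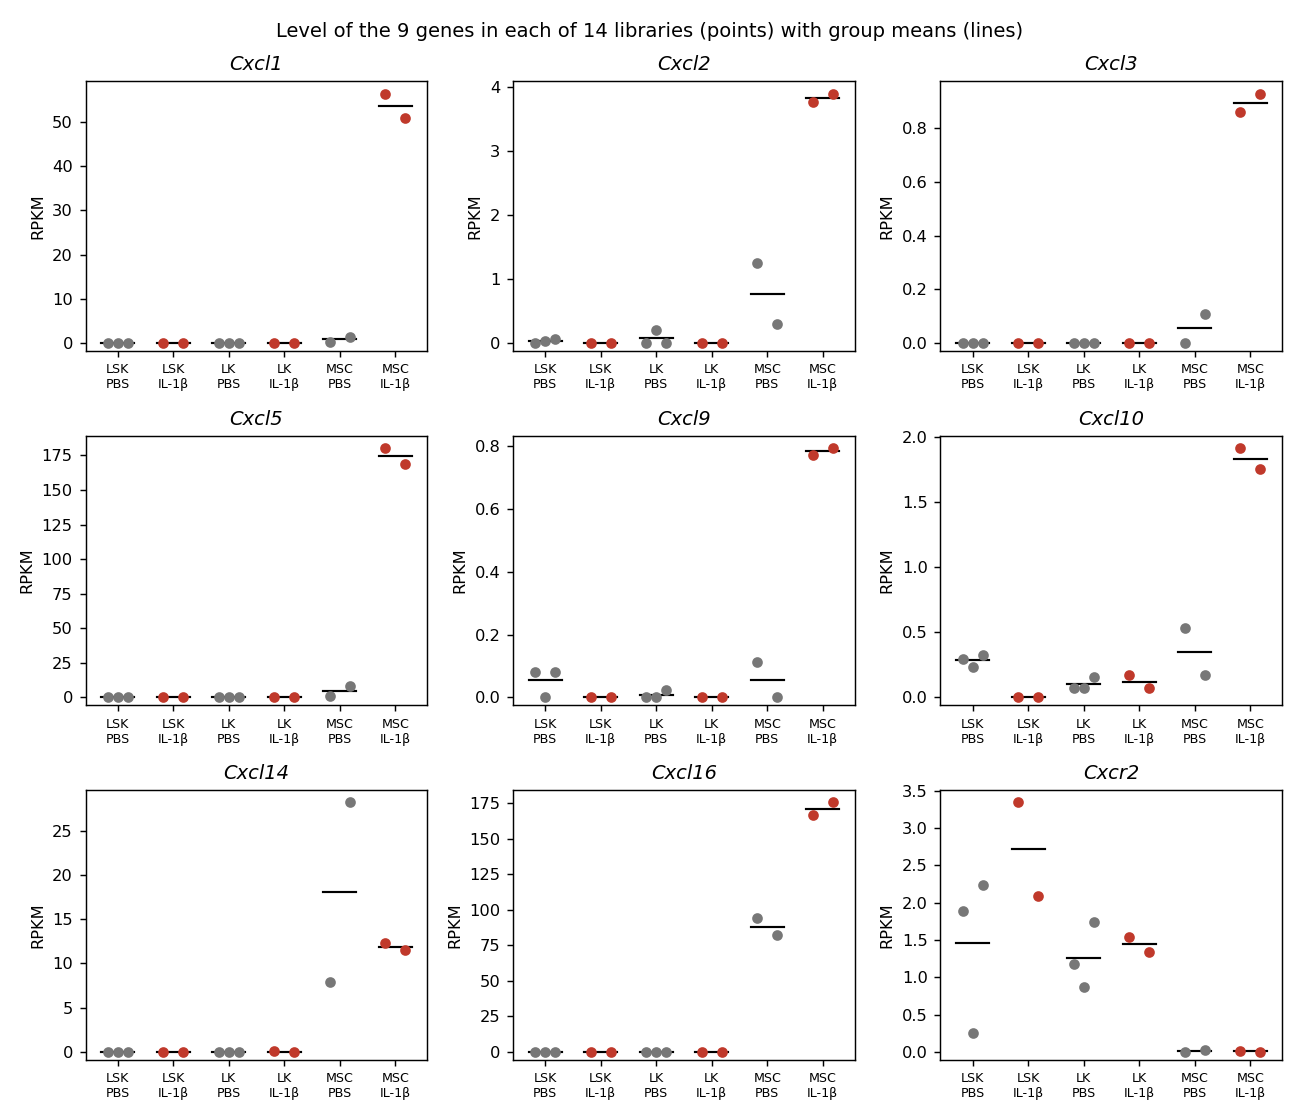
Level of each gene in RPKM (counts scaled to exon length and library size, vertical axis, a different range in each panel) in LSK, LK and MSC given PBS (grey) or IL-1β (red). Points are libraries and lines are group means. The ligands are highest in MSC, and Cxcr2 lies between 0.248 and 3.34 RPKM in LSK and LK and at or under 0.0249 RPKM in MSC.

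The MSC comparison asked what IL-1β does to marrow stromal cultures. Of the 9 genes, 8 had enough reads to be tested with edgeR's quasi-likelihood test. At an adjusted p under 0.05 and a change of more than 0.5 on the log2 scale, 7 of them rose with IL-1β and 1, Cxcl14, was not called. Over all 13239 genes tested, 11.4% were called and 7.14% were called higher. Cxcl3 and Cxcl9 passed the filter on low counts only through the IL-1β libraries, so that their passing already required a difference. For Cxcl1, Cxcl2 and Cxcl10 only 1 PBS culture reached the level of the filter, so they too leaned on the IL-1β libraries. The count of 7 is given as a description.

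**Figure D2:**
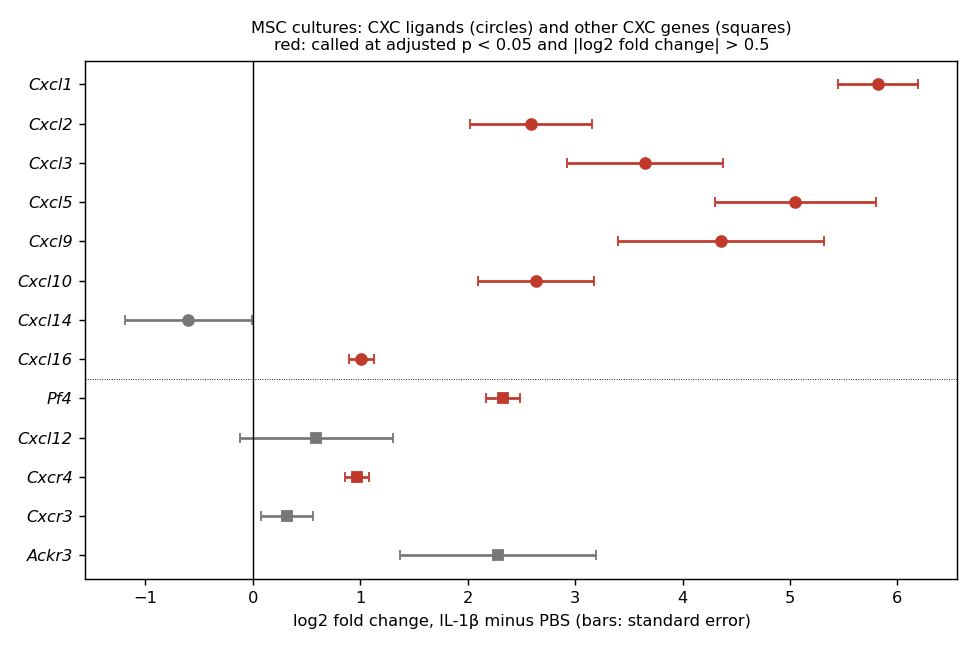
Fitted log2 fold change (IL-1β minus PBS, horizontal axis) of the 8 CXC ligands (circles) and of 5 other CXC genes (squares) in MSC, with standard errors as bars and called genes in red. Cxcl1 (5.82) and Cxcl5 (5.05) lie farthest to the right among the 8 ligands, and Cxcl14 lies at -0.60 with a bar of 0.59.

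Cxcl1 (KC), a main neutrophil attractant of the mouse, was read at 0.500 and 2.48 CPM in PBS replicates 2 and 3 and at 106.9 and 98.0 CPM in IL-1β replicates 1 and 2. Both treated cultures stood far above both controls, and the controls differed between themselves more than the treated cultures did. The log2 fold change was 5.82 ± 0.37 (SE, adjusted p = 0.00211), or 56.6-fold, from PBS counts of 3 and 33 pairs. Even the lower treated culture exceeded the higher control 39.5-fold.

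Cxcl5 (LIX), another Cxcr2 ligand, was at 2.17 and 15.6 CPM with PBS and at 339.7 and 323.6 CPM with IL-1β. The groups did not overlap, although the PBS cultures lay 7.22-fold apart. Its log2 fold change was 5.05 ± 0.75 (adjusted p = 0.0292). When no filter on low counts was used, the adjusted p rose to 0.202 and the call was lost.

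Cxcl2 (MIP-2) was at 2.50 and 0.601 CPM with PBS and at 7.86 and 8.28 CPM with IL-1β. Here the order of the PBS cultures was turned, since replicate 2 was the higher one for Cxcl2 and the lower one for Cxcl1 and Cxcl5. It rose by 2.59 ± 0.57 on the log2 scale (adjusted p = 0.0416).

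Cxcl3, the least abundant of the Cxcr2 ligands among the members, had 0 and 5 counts with PBS and 93 and 38 counts with IL-1β. That is 0 and 0.376 CPM against 3.05 and 3.35 CPM. The treated cultures agreed closely, whereas 1 control held no read. The fitted log2 fold change was 3.65 ± 0.73 (adjusted p = 0.0327). Summed over libraries, its share of the counted pairs was 11.7 times as high with IL-1β (95% interval 4.89 to 36.6, exact binomial, counting error only).

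Among the ligands of Cxcr3, Cxcl9 (MIG) had 2 and 0 counts with PBS and 72 and 28 counts with IL-1β. Both treated cultures thus held far more reads than either control. The ratio of those shares was 22.3 (95% interval 6.02 to 187, exact binomial, counting error only), and the log2 fold change fitted by edgeR was 4.36 ± 0.96 (adjusted p = 0.0406). At 2.36 and 2.47 CPM it remained a scarce transcript after treatment.

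Cxcl10 (IP-10) was at 1.17 and 0.376 CPM with PBS and at 4.36 and 4.05 CPM with IL-1β. The treated cultures were again alike and lay above both controls. It rose by 2.64 ± 0.54 on the log2 scale (adjusted p = 0.0344). Cxcl11, the third ligand of Cxcr3, held 0 counts in each of the 4 MSC libraries.

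Cxcl16 was at 275.9 and 246.6 CPM with PBS and at 509.1 and 546.3 CPM with IL-1β. Unlike the other ligands that rose, it was abundant already in the controls, which lay within 1.12-fold of each other. It rose by 1.01 ± 0.12 on the log2 scale (adjusted p = 0.00775), a 2.02-fold change. Cxcl16 is known as a macrophage product among other sources, and 6 of the 10 macrophage markers were also called higher here, with a median log2 fold change of 0.88 over the list. The part of those cells in the rise of Cxcl16 or of the other ligands was not tested.

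Cxcl14 did not follow the others. It was at 13.99 and 50.97 CPM with PBS and at 22.7 and 21.7 CPM with IL-1β, so that both treated cultures fell between the controls. The fitted log2 fold change was -0.60 ± 0.59 (adjusted p = 0.557). The value hangs on which control is kept. Without PBS replicate 2 it was -1.19 and without PBS replicate 3 it was 0.68, each with a call in its own direction.

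Which library is left out also decides the calls of the others. Without IL-1β replicate 1 or without IL-1β replicate 2, the ligands lost their calls by edgeR's quasi-likelihood test. Such a fit has 1 treated library left. Calls over all genes also moved widely with the library left out, as given below, so the loss is not particular to the ligands. The fitted changes themselves moved little in those fits. Leaving out a PBS culture moved them much more, from 5.38 to 7.67 for Cxcl1, 4.42 to 7.26 for Cxcl5, 3.06 to 8.66 for Cxcl3, 2.82 to 8.47 for Cxcl9, 1.68 to 3.73 for Cxcl2 and 1.86 to 3.48 for Cxcl10. Cxcl16 stayed between 0.94 and 1.11. The values that involve a PBS culture with 0 counts depend on how the fit treats a 0 and are no bounds.

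**Figure D3:**
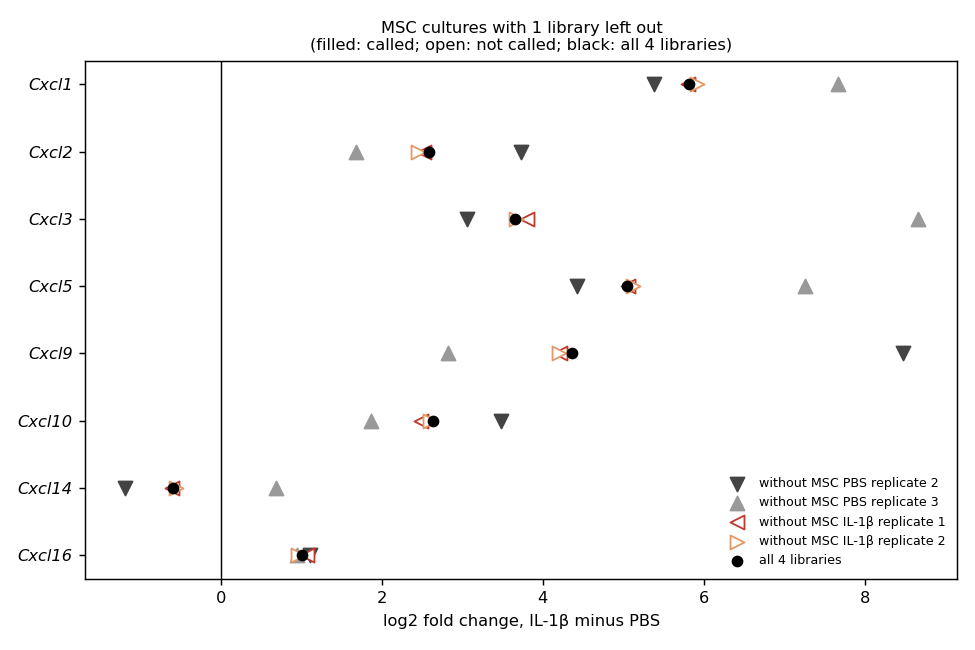
Log2 fold change (IL-1β minus PBS, horizontal axis) of each ligand in MSC with all 4 libraries (black) and with 1 library left out (triangles, filled where called). The open triangles, without 1 IL-1β culture, lie next to the black points, whereas Cxcl14 crosses 0 between -1.19 and 0.68 when a PBS culture is left out.

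On a per-length scale the make-up of the ligands could be compared. With PBS the order was Cxcl16 (88.3 ± 8.11 RPKM, SD, n = 2), Cxcl14 (18.04 ± 14.38) and Cxcl5 (4.84 ± 5.16), and the mean of each remaining member was below 1 RPKM. Cxcl1 (0.806 ± 0.752), Cxcl2 (0.769 ± 0.671) and Cxcl10 (0.351 ± 0.257) did not differ beyond their spread in the controls. With IL-1β, Cxcl5 (174.6 ± 8.25 RPKM) and Cxcl16 (171.2 ± 6.32) stood together at the top, with means closer than their spread, followed by Cxcl1 (53.6 ± 3.99), Cxcl14 (11.9 ± 0.538), Cxcl2 (3.83 ± 0.0932), Cxcl10 (1.83 ± 0.116), Cxcl3 (0.896 ± 0.0486) and Cxcl9 (0.784 ± 0.0152).

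Over the 15 CXC ligands looked at, the 8 members and 7 others, the summed level was 167.9 and 161.0 RPKM with PBS and 589.7 and 588.8 RPKM with IL-1β. The 4 members that are Cxcr2 ligands, Cxcl1, Cxcl2, Cxcl3 and Cxcl5, made up 1.62% and 6.35% of that sum in the controls. They made up 40.9% and 38.1% in the treated cultures. The share of Cxcl16 went from 56.0% and 51.3% to 28.3% and 29.8% although its own level rose.

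**Figure D4:**
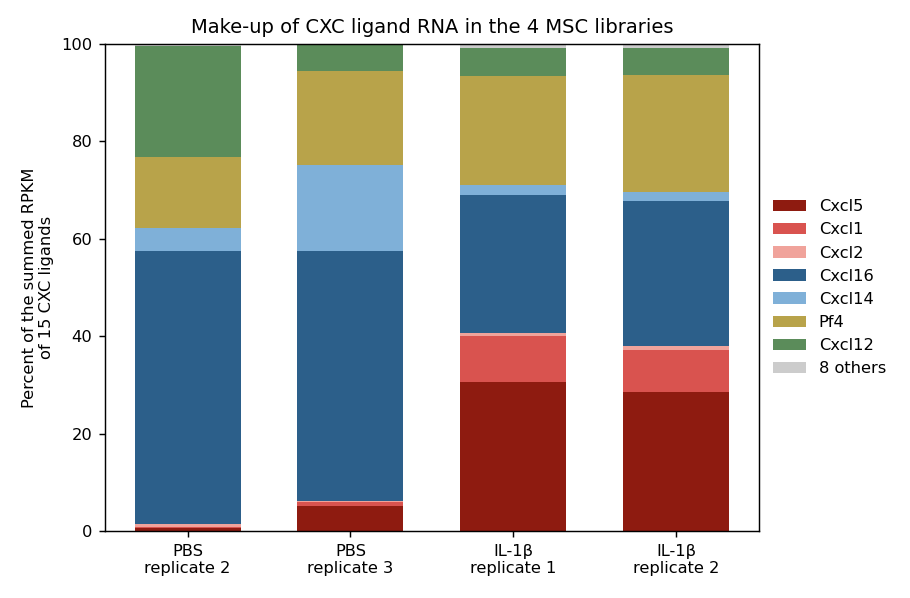
Share of each ligand in the summed RPKM of 15 CXC ligands (vertical axis, percent) in the 4 MSC libraries. Cxcl5 goes from 0.712% and 5.27% of the bar with PBS to 30.6% and 28.7% with IL-1β, and Cxcl16 from 56.0% and 51.3% to 28.3% and 29.8%.

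The cluster on chromosome 5 was looked at gene by gene. From Cxcl5 to Cxcl2 the annotation lists 11 genes, of which 6 were tested in MSC and all 6 were called higher, where 7.14% of all genes tested were. Cxcl3 and Ppbp entered the test only through the IL-1β libraries, which already required a difference, and Cxcl1 and Cxcl2 leaned on them in part. The count of 6 is thus a description. Besides the 4 members these were Pf4 and Ppbp, the platelet chemokines that lie between Cxcl5 and Cxcl3. Pf4 was at 17.0 and 22.3 CPM with PBS and at 95.5 and 104.7 CPM with IL-1β, a rise of 2.33 ± 0.16 on the log2 scale (adjusted p = 0.00176). Ppbp had no counts in either control and 42 and 10 counts in the treated cultures, at least 7.73-fold higher against a floor of 3 counts over the group, and it too was called (adjusted p = 0.0406). For 31.3% of all genes tested the treated cultures were both above the higher control, and these 6 genes were among them. The untested genes of the stretch, Cxcl15 among them, had at most 4 counts.

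**Figure D5:**
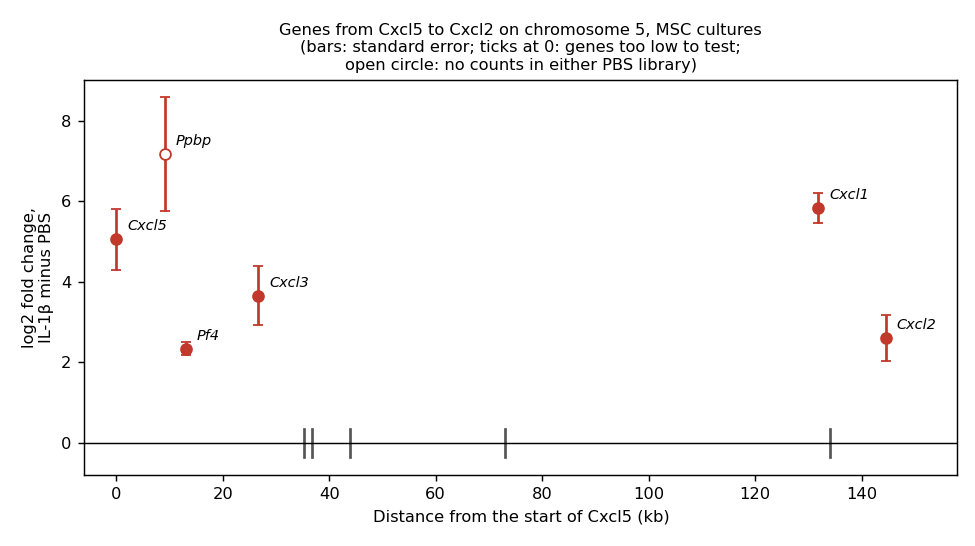
Log2 fold change (IL-1β minus PBS, vertical axis) in MSC of the genes of the chromosome 5 cluster against the distance from the start of Cxcl5 in kb. The 6 tested genes lie above 0, from Pf4 (2.33) upward, with the open circle for Ppbp, whose fitted value rests on controls with no counts.

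Other CXC ligands and receptors gave the setting of these changes in MSC. Cxcl12, the ligand that holds stem cells and neutrophils in the marrow, was at 304.9 and 69.8 CPM with PBS and at 282.2 and 275.7 CPM with IL-1β, and its log2 fold change of 0.59 ± 0.71 was not called (adjusted p = 0.640). Here 1 control was low and the other as high as the treated cultures. Its receptor Cxcr4 rose by 0.97 ± 0.11 on the log2 scale (adjusted p = 0.00851), from 171.0 and 149.2 CPM to 318.9 and 309.2 CPM. Cxcr3, the receptor of Cxcl9 and Cxcl10, was at 4.66 to 6.55 CPM with a log2 fold change of 0.32 ± 0.24 (adjusted p = 0.436). Ackr3, a scavenging receptor of Cxcl12, gave 2.28 ± 0.91 (adjusted p = 0.163). Cxcr6, the receptor of Cxcl16, had no more than 5 counts in any MSC library and was not tested.

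Of the regulators and processing enzymes of CXC ligands, 16 of 17 were tested in MSC and 8 were called higher and 0 lower, with a median log2 fold change of 0.54 against 0.00 over all genes tested, 7.14% of which were called higher. The largest changes were those of Irf7, a transcription factor of the interferon response (4.41 ± 0.33, adjusted p = 0.00367), and Mmp8, a neutrophil collagenase that trims chemokines (2.99 ± 0.29, adjusted p = 0.00468). Also called were Zc3h12a, Nfkbiz, Nfkbia, Adam17 and Irf1, at 0.58 to 1.61. Adam17 is a protease that sheds membrane proteins, and Zc3h12a encodes an RNase that destroys chemokine mRNAs. Of the 20 genes of signalling below the receptor, 4 were called higher (Fgr, Prex1 and Arrb2 among them, at 0.54 to 1.38) and 0 lower, with a median of 0.27 on the log2 scale. Over all 4 of these lists 15 genes were called with all libraries. Without IL-1β replicate 1 or replicate 2 nearly all of these calls were lost, in fits with 1 treated library left. Calls over all genes moved widely too. Mmp8 is also 1 of the 10 neutrophil markers, of which 4 were tested in MSC and 3 called higher. Summed over the list they were at 28.7 to 39.6 CPM with PBS and at 99.7 to 104.4 CPM with IL-1β. Most of that sum was Csf3r. The other markers of the list came to 3.16 and 2.26 CPM with PBS and 17.0 and 17.2 CPM with IL-1β. Ly6g, Ngp, Retnlg and S100a9 were at 0 counts. The dendritic markers went from 155.5 to 331.6 CPM with PBS to 51.9 to 57.2 CPM with IL-1β, with 1 of 2 tested called lower. Nearly all of this was Itgax, at 155.2 and 330.4 CPM with PBS and 56.2 and 51.1 CPM with IL-1β, while Flt3 was at 0 counts. The part of these cell types in the changes of the ligands and their regulators was not tested.

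For Cxcr2 the sorted cells were the place to look. LSK and LK cells given IL-1β or PBS were compared to ask how IL-1β alters mutant stem cells and progenitors. In LSK cells Cxcr2 was at 5.11, 0.782 and 6.48 CPM in PBS replicates 1 to 3, from 70, 10 and 111 counts, and at 10.7 and 6.94 CPM in IL-1β replicates 1 and 2, from 88 and 28 counts. Both treated libraries lay above all 3 controls, as they did for 18.2% of the genes tested, and 1 control was far below the other two. The log2 fold change was 1.10 ± 0.78 and edgeR's quasi-likelihood test gave an adjusted p of 0.475, where 0.632% of 13132 genes were called. Without PBS replicate 2, the low library, the change was 0.64.

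In LK cells Cxcr2 was at 3.65, 2.52 and 5.29 CPM with PBS and at 4.76 and 4.17 CPM with IL-1β. The groups overlapped. The log2 fold change was 0.23 ± 0.41 (adjusted p = 0.765), where 9.34% of 12835 genes were called. The neutrophil markers moved in the same cells, from 35.1 to 47.5 CPM summed over the list with PBS to 287.6 to 523.4 CPM with IL-1β in LK, and from 95.3 to 101.5 CPM to 101.8 to 165.4 CPM in LSK. The LSK sum was mostly Csf3r, and the other markers of the list went from 1.34 to 8.47 CPM to 19.1 to 74.6 CPM, with a median log2 fold change of 3.19 over the 7 tested and none called by edgeR. The dendritic markers in LSK went from 251.7 to 290.1 CPM with PBS to 31.95 to 67.2 CPM with IL-1β (1 of 4 called lower). That sum was nearly all Flt3, at 245.8 to 271.6 CPM with PBS and 65.5 and 29.5 CPM with IL-1β. Flt3 is also on the stem and progenitor list, which went from 1322 to 1760 CPM to 799.2 to 891.2 CPM (2 of 6 called lower). In LK 4 of the 8 neutrophil markers tested were called higher, and Ly6g, the marker of mature neutrophils, was at 0 counts in all libraries. The part of these cell types in the levels of Cxcr2 was not tested.

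Cxcr2 did not separate the populations either. Under PBS the log2 difference of LSK over LK was 0.13, with an adjusted p of 0.889 in a fit where 31.8% of 13839 genes were called, and its sign changed when LSK replicate 1 or 3 or LK replicate 2 of the PBS libraries was left out. With a block by replicate number over both treatments it was -0.08 (adjusted p = 0.921). The basis for that block was weak. Same-numbered LSK and LK libraries under PBS correlated in their deviations at 0.211, 0.128 and 0.472. LSK replicate 2 and LK replicate 1 did so at 0.162. The block also tied PBS to IL-1β libraries that shared only a number. The response of LSK minus that of LK was 0.82 ± 0.97 (adjusted p = 0.737), in a test that called 0.0289% of genes. A change of Cxcr2 of the size fitted in LSK cells was not resolved at this spread between libraries.

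Over all 14 libraries the genes whose levels ran most nearly parallel to Cxcr2 were Pld6, Poc1b and Pdk3, with Pearson's r of 0.984, 0.980 and 0.974 on log2 CPM among 15196 genes. The 14 points share the split between sorted cells and MSC, which have different sources, depths and tables, and the values are given as a description.

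The ligands in the sorted cells were too low to be tested. Cxcl10 was the exception worth a value, with 8, 7 and 12 counts in the LSK PBS libraries and 0 and 0 in the LSK IL-1β libraries. The controls all held reads and the treated libraries, which were shallower, held none. Against a floor of 3 counts over the treated group it was at least 2.81-fold lower with IL-1β. A fit without the filter on low counts gave an adjusted p of 0.371, so the difference was not called. In LK cells Cxcl10 had 2, 3 and 5 counts with PBS and 3 and 1 counts with IL-1β, a ratio of shares of 1.29 (95% interval 0.296 to 4.49, exact binomial, counting error only).

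Of the remaining ligands in sorted cells, Cxcl9 had 3, 0 and 4 counts in LSK with PBS and 0 in both LSK libraries with IL-1β, below what the depth of the treated libraries could resolve. Cxcl2 showed 8 counts in LK PBS replicate 2 and none in the other four LK libraries. Cxcl3 had 0 counts in all 10 sorted libraries, and Cxcl1 had 1 count in 1 of them. Cxcl14 had 0 or 1 count and Cxcl5 between 0 and 5 counts in each. Cxcl16 had between 0 and 7 counts in each, with ratios of shares of 0.711 in LSK (95% interval 0.0747 to 3.43) and 0.809 in LK (0.146 to 3.00). Outside the 8 ligands, Ppbp had 23, 1 and 22 counts in LSK PBS replicates 1 to 3. Pf4 was the most abundant CXC ligand of the sorted cells, at 43.8 to 103.4 CPM in LSK and 5.96 to 17.1 CPM in LK with PBS. On the log2 scale Pf4 was higher in LSK by 2.50 ± 0.39 (adjusted p = 0.000602). With IL-1β it was at 48.7 and 50.5 CPM in LSK and at 4.90 and 2.88 CPM in LK. In LK its log2 fold change of -1.63 ± 0.50 was not called by edgeR (adjusted p = 0.0861). DESeq2's Wald test did call Pf4 there, among 1536 genes called over all.

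The pathway around Cxcr2 was compared in the same cells. In LSK, 0 of the 40 tested genes of the 4 surrounding lists were called with IL-1β by edgeR, which called 0.632% of all genes. An unadjusted p under 0.05 in that test was reached by 10 of the 40 and by 2431 of all 13132 genes tested. DESeq2's Wald test called 2 of the 40, and 891 over all genes. Cxcr4 gave -0.78 ± 0.29 (edgeR, adjusted p = 0.205). In LK, 39 were tested, 5 were called higher and 2 lower, where 9.34% of all genes were called and 6.77% called higher. The 5 that rose all belonged to the 20 genes of receptor signalling. Among them was Pik3r5, the regulatory subunit of the kinase PI3Kγ (2.07 ± 0.21, adjusted p = 0.00175). Rac2, the GTPase of leukocyte movement, rose by 1.19 ± 0.21 (adjusted p = 0.0179), and Gnai3, an inhibitory G protein subunit, by 0.81 ± 0.11 (adjusted p = 0.00518). Another was Arrb2, a β-arrestin that carries the receptor inward. Ctss, a lysosomal protease, fell by 2.49 ± 0.31 on the log2 scale (adjusted p = 0.00394) and Rela, a subunit of NF-κB, fell by 0.60 ± 0.10 (adjusted p = 0.00875). Calls over all genes moved with the library left out, as given below, and so did those in the lists. Without LK IL-1β replicate 1, which left 1 treated library, edgeR's calls among the 39 were lost. Without LK PBS replicate 3 edgeR called 11 higher and 3 lower. The neutrophil markers given above moved in the same libraries. So did the erythroid markers, from 535.2 to 812.5 CPM with PBS to 307.9 to 371.8 CPM with IL-1β (2 of 5 called lower). The dendritic ones went from 61.7 to 68.0 CPM to 23.6 to 27.9 CPM (1 of 3 called lower). That dendritic sum was nearly all Flt3 and Zbtb46. Flt3 was at 25.5 to 36.9 CPM with PBS and at 7.54 and 3.69 CPM with IL-1β. Zbtb46 was at 26.0 to 38.3 CPM and at 14.3 and 22.4 CPM. Ccr7 and Cd209a were at or under 3 counts in every LK library. Nkg7, the only T and NK cell marker tested, rose from 52.3 to 102.0 CPM to 239.7 to 282.5 CPM. The rest of that list did not show such cells, with Cd3e and Cd3g at 0 counts in all LK libraries and Ncr1 at no more than 2. The part of these cell types in the changes in LK was not tested. Cxcr4 gave 0.49 ± 0.20 in LK (adjusted p = 0.180), and the difference between its LSK and LK responses was -1.31 ± 0.37 (adjusted p = 0.186).

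Under PBS, 18 of 41 tested genes of the 4 lists were higher in LSK than in LK and 0 lower, while Cxcr2 itself was not called. Among the called genes the largest differences were those of Pf4, given above, of Irf1, a transcription factor induced by interferons (2.07 ± 0.21, adjusted p = 5.37e-05), of Gng2, a G protein subunit (1.89 ± 0.22, adjusted p = 0.000114), and of Nfkbiz, a co-regulator of NF-κB targets (1.63 ± 0.52, adjusted p = 0.0314). In the receptor signalling list alone 11 of 20 were called higher. Over all genes tested 31.8% were called and 19.4% were called higher in LSK.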

How the data were processed

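The tables of raw counts (read pairs per gene), 3 in all, 1 for LSK, 1 for LK and 1 for MSC, were used as deposited. Per the file headers and the submitters' processing notes, reads were trimmed with fastp 0.20.0, aligned to GRCm38 with HISAT2 2.0.1 and counted per gene with featureCounts 2.0.2 in the reverse-stranded paired mode. The tables give 55487 genes, 55141 of which were matched to a symbol, and the deposited gene length, which served for RPKM. Libraries were made from rRNA-depleted total RNA.

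Each population was tested with edgeR 4.0.16 (filterByExpr, TMM factors, robust quasi-likelihood fit), and LSK against LK and the difference of their responses in 1 fit of all 10 sorted libraries, with Benjamini-Hochberg adjustment over all genes tested. Genes were called at an adjusted p under 0.05 and an absolute log2 fold change over 0.5. CPM used TMM factors within a population. Same-numbered LSK and LK libraries under PBS correlated in their deviations at 0.211, 0.128 and 0.472, and differently numbered ones at -0.381 to 0.162. A block by replicate number, over both treatments, was fitted as an alternative. No pair of replicates agreed within sampling noise (chi-square per degree of freedom 5.20 or more).

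The genes and lists were chosen with earlier results of these data known. Named besides the members were the called genes of 4 lists (up to 4 in each direction) and 6 further CXC genes, and some called genes of the lists are not reported here. Alternatives were other size factors (DESeq2 1.42.0, upper quartile), no filter or at least 10 reads in 2 libraries, the DESeq2 Wald test, no threshold on the fold change, leaving out each library, replicate blocks and a joint fit. The fits were tested on simulated data. A further MSC library named in a file header was not analysed here. Of the other marker lists in MSC, the 5 endothelial markers summed to 11.7 to 18.6 CPM, the 6 stem and progenitor to 103.7 to 129.2, and the erythroid, B cell and T and NK cell markers to at most 1.31 CPM each.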

Additional observations from a re-analysis of the deposited data

How the results depend on the processing

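Among the members, the 7 calls in MSC were the same under the other size factors, the other filter on low counts, the DESeq2 Wald test and no threshold on the fold change. With no filter on low counts 6 remained, without Cxcl5. Leaving out 1 library gave from 0 called members (without either IL-1β culture) to 8 (without either PBS culture), and Cxcl14 turned from -0.60 to 0.68 without PBS replicate 3 and stood at -1.19 without PBS replicate 2. Cxcr2 was called in no comparison under any alternative. Its log2 fold change in LSK was 2.0 with a replicate block, which tied PBS to IL-1β libraries that shared only a number. Its log2 fold change in LK ranged from -0.0004 (without LK PBS replicate 2) to 0.56 with 1 library left out. Its LSK over LK difference under PBS turned to -0.08 with a replicate block, to -0.18 with a replicate block within treatment (added after seeing the data), to -0.10 without LK PBS replicate 2, to -0.15 without LSK PBS replicate 1 to -0.33 without LSK PBS replicate 3 and up to 0.62 without LSK PBS replicate 2.

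Counts over all genes moved more. In LSK 83 genes were called, against 869 with no filter, 891 with DESeq2, 702 with a replicate block, 1228 in the joint fit and 3 to 480 with 1 library left out. In LK 1199 were called, against 1844 with no filter, 2331 with a replicate block, 489 in the joint fit and 66 to 2409 with 1 library left out. In MSC 1515 were called, against 2354 with no filter and 38 to 3819 with 1 library left out. For LSK over LK under PBS 4394 were called, and 2741 to 4607 with 1 library left out. For the difference in response 4 were called, against 398 with no filter, 334 with DESeq2, 24 with the block within treatment and 0 to 336 with 1 library left out. The causes were not tested. PBS and IL-1β libraries of a population shared only a number (correlations of deviations from -0.149 to 0.149 between same-numbered or crossed pairs), so their block results stand here only. No paired analysis was possible in MSC because the groups shared 1 replicate number.

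With 2 libraries in an arm, leaving 1 out assumes that the lone library varies like the others. RPKM after TMM factors over all 14 libraries moved 9 of the 54 group levels by more than their spread. Depth limits the ligands in sorted cells, where most counts were at or under the floor.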
